A study of Homo sapiens with 12 samples.

Results

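LNCaP cells that had received siRNA against PXN and then dihydrotestosterone (DHT) were compared with cells that had received non-specific (NSP) siRNA and ethanol vehicle. The comparison gives the net state after both steps: which genes stood at the control level when the hormone was added to paxillin-depleted cells, and which did not. Its members are 6 of the 12 libraries of the study, 3 with PXN siRNA plus DHT and 3 with NSP siRNA plus vehicle, and every gene was considered. The other 6 libraries, 3 with PXN siRNA plus vehicle and 3 with NSP siRNA plus DHT, separate the net difference into its steps. In all groups the cells were transfected for 48 h and kept without serum for 12 h. They then received 2.5 nM DHT or ethanol for 24 h. LNCaP is an androgen-sensitive line from a lymph node metastasis of prostate cancer, so all values describe 1 line. The labels number the replicates without calling them separate cultures. The spread behind each p-value is that of these samples alone and could be technical. The number of siRNA sequences used against PXN is not given.

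Paxillin, the product of PXN, is an adaptor protein of focal adhesions, the sites where integrins link the cytoskeleton to the matrix. It also enters the nucleus and has been described as a coregulator of androgen-driven transcription. DHT is the most potent natural androgen, which acts through androgen response elements in DNA and induces genes such as the kallikreins KLK2 and KLK3, the latter encoding prostate-specific antigen. LNCaP cells kept without serum have low androgen signalling until hormone is added.

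The targeted gene was low in both PXN siRNA groups. PXN (chr12:120210439-120265771, minus strand; positions are from GENCODE 29 on GRCh38) stood at 112, 106 and 108 CPM (counts relative to the library total, scaled so that libraries of different depth can be compared) in control libraries. It stood at 15.2, 21.2 and 14.9 CPM after PXN siRNA with vehicle and at 20, 18.1 and 16.6 CPM after PXN siRNA with DHT. The groups did not overlap, and the net log2 fold change was -2.57 ± 0.11 (SE; edgeR quasi-likelihood test, adjusted p = 1.18e-08). Library totals were 34321000 to 38633456 counts, so 1 CPM stands for 33.67 to 38.28 counts. Luminal markers were expressed (KRT8 averaged 448.5 CPM in control cells and 502.4 CPM after PXN siRNA plus DHT). Of 15 markers of other cell types, KRT5 and TP63 (basal), PTPRC (immune) and PECAM1 (endothelial) were at or below 0.0863 CPM in every library. The summed level of the 15 markers was 45.86 to 55.03 CPM in control libraries and 65.82 to 74.61 CPM after PXN siRNA plus DHT. COL1A1 accounted for most of that difference, with 20.2, 22.4 and 18.8 CPM against 33, 33.9 and 38.2 CPM. COL3A1 and LUM, stromal markers like COL1A1, were lower instead. COL3A1 had 8.07, 6.51 and 5.98 CPM against 3.39, 2.8 and 2.84 CPM. LUM had 0.845, 0.568 and 0.374 CPM against 0.082, 0.0554 and 0.11 CPM. VWF, which also marks endothelium, was present at 15, 14.3 and 12.8 CPM against 17.3, 22 and 21.9 CPM, and TAGLN, a smooth muscle marker, at 4.52, 7.7 and 4.57 CPM against 7.76, 9.41 and 8.12 CPM. Of the 15 markers 3 to 5 were at 0 in each control library and 1 to 3 in each library with PXN siRNA plus DHT. Mitochondrially encoded genes took 5.72% ± 1.59 (SD, n = 3) of counts in control libraries and 8.417% ± 0.174 (SD, n = 3) after PXN siRNA plus DHT (two-sided exact permutation test, p = 0.1, the smallest value 3 against 3 libraries allow). The median net log2 fold change was 0.35 among genes averaging under 1 CPM and -0.18 among those over 100 CPM. The part of these differences in the results was not tested.

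In the net state 9192 genes differed from control, and of the 8 largest rises and 8 largest falls among genes at 5 CPM or more without overlapping libraries only CHRNA2 also had a call for DHT. Of 18468 genes tested, 4358 were higher (23.6%) and 4834 were lower (26.2%) at an adjusted p under 0.05. Of these, 1463 were at least 2-fold higher and 622 at least 2-fold lower. With upper-quartile scaling the share of higher genes among the calls rose from 47.4% to 59.7%. The net log2 difference is the sum of an siRNA step (PXN siRNA with vehicle against control) and a DHT step (DHT against vehicle in PXN siRNA cells). The siRNA step called 4423 genes higher (23.9%) and 4853 lower (26.3%), whereas the DHT step called 34 higher (0.184%) and 0 lower (0%). At an unadjusted p under 0.05 the DHT step held 905 higher and 473 lower genes. The lower count is near what that threshold alone would give in either direction. DESeq2 called 13 genes lower in the DHT step. In cells with NSP siRNA the same hormone dose raised 502 genes (2.72%) and lowered 398 (2.16%). No gene passed the edgeR test of the difference between these 2 responses to DHT without a replicate block. An unadjusted p under 0.05 was held by 778 genes, no more than that threshold alone would give among the genes tested. DESeq2 called 37 genes, edgeR with the replicate block 58, and edgeR without NSP siRNA DHT replicate 1 called 45.

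Deviations of same-numbered libraries from their group means correlated above a limit of 0.1 in both steps, in the DHT step barely (lowest 0.1004). They were taken as paired there, and a fit with the replicate number as a block called more genes for DHT. Its block covers all 12 libraries, although the limit was missed in the net comparison and between the siRNA groups under DHT. In that fit the DHT step raised 249 genes (1.35%) and lowered 97 (0.525%). The count without a block rested on single libraries: it was 10 without PXN siRNA vehicle replicate 3, 12 without PXN siRNA DHT replicate 2, 15 without PXN siRNA vehicle replicate 1 and 18 without PXN siRNA DHT replicate 3. It was 70 without PXN siRNA DHT replicate 1, 71 without PXN siRNA vehicle replicate 2 and 80 without NSP siRNA DHT replicate 1. With the block, the lowest count, 60, came without PXN siRNA DHT replicate 2.

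**Figure D1:**
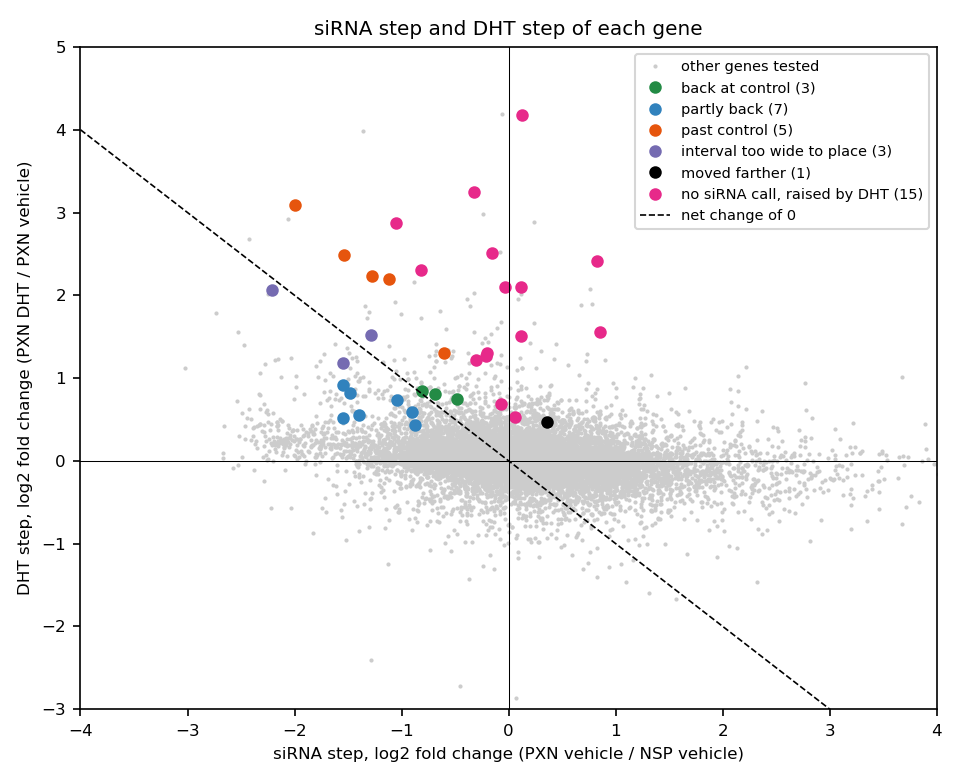
Each point is 1 of 18468 genes, with the log2 fold change of PXN siRNA under vehicle on the horizontal axis and that of DHT in PXN siRNA cells on the vertical axis (27 genes lie outside the axes). The 34 coloured genes passed the test for DHT; on the dashed line the steps cancel and the net change is 0. The axes share the PXN siRNA vehicle libraries, so a return can be neither read from the slope of the grey points nor excluded by it.

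Genes were placed by their calls in the siRNA step, the DHT step and the net comparison. A gene was taken as back at control if the 2 steps were called in opposite directions, the net difference was not called and its 95% interval lay within 1.5-fold of control (0.585 on the log2 scale). The DHT step opposed the siRNA step in 18 genes (0.0975% of those tested). All 18 had been lowered by PXN siRNA and raised by DHT. Of these, 3 were back at control, 7 were partly back, 5 had passed above control, and 3 had an interval too wide to place. With the replicate block 215 genes were opposed (1.16%), of which 68 were back, 121 partly back, 12 past and 14 not placed. These placements used the blocked net interval, although the net comparison was not paired by its replicate numbers. The 121 fell to 16 without PXN siRNA DHT replicate 2, 55 without PXN siRNA vehicle replicate 3 and 61 without PXN siRNA DHT replicate 1. Without the block, genes back numbered 1 without PXN siRNA vehicle replicate 1 or PXN siRNA DHT replicate 2, 5 or 6 without NSP siRNA vehicle replicate 1 or 3 or PXN siRNA vehicle replicate 2, and 11 or 12 without NSP siRNA DHT replicate 1 or PXN siRNA DHT replicate 1. Genes past control numbered 3 without NSP siRNA vehicle replicate 3 or PXN siRNA DHT replicate 2 and 9 without PXN siRNA DHT replicate 1. Genes not placed numbered 0 without PXN siRNA vehicle replicate 3, 5 without NSP siRNA vehicle replicate 3, 6 without PXN siRNA DHT replicate 1 and 10 without NSP siRNA DHT replicate 1. The siRNA step and the DHT step share the PXN siRNA vehicle libraries, so an error in their mean moves both steps in opposite directions. The response to DHT in NSP siRNA cells shares no library with the DHT step: there too, DHT raised all 18 genes, against 2.72% of genes tested. It also raised the other genes called in the DHT step, so this is no trait of the 18. That response shares the NSP siRNA vehicle libraries with the siRNA step by which the 18 were chosen. In cells given DHT, all 18 were lower with PXN siRNA than with NSP siRNA, a comparison that called 4622 genes higher (25%) and 4939 lower (26.7%).

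HERC3, STK39 and ELOVL5 were the 3 genes back at control. HERC3 (chr4:88592423-88708542, plus strand) encodes a HECT-type ubiquitin ligase. Its level was 122, 99.3 and 103 CPM in control cells, 67.4, 57.7 and 59.4 CPM after PXN siRNA, and 97.3, 114 and 120 CPM after PXN siRNA plus DHT. The first and last groups overlapped, and both lay above every PXN siRNA vehicle library. Its siRNA step was -0.81 ± 0.11 (adjusted p = 4.14e-05), its DHT step 0.84 ± 0.11 (adjusted p = 0.00489) and its net change 0.03, with a 95% interval from -0.21 to 0.27. NSP siRNA cells given DHT reached 254, 316 and 343 CPM, above all libraries of the other groups. HERC3 kept its DHT call in 11 of the 12 fits that left out 1 library, and lost it without PXN siRNA vehicle replicate 3 (adjusted p = 0.0545).

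STK39 (chr2:167954020-168248141, minus strand), which encodes the kinase SPAK that acts on cation-chloride cotransporters, followed the same course. It was at 89.7, 72.8 and 80 CPM in control cells, 46.6, 53.5 and 50.1 CPM after PXN siRNA, and 71.3, 96.2 and 95.5 CPM after DHT was added. The net change was 0.12 with an interval from -0.15 to 0.39. ELOVL5 (chr6:53267398-53349179, minus strand) encodes an elongase of polyunsaturated fatty acids. It stood at 471, 431 and 371 CPM in control cells, at 284, 360 and 268 CPM after PXN siRNA, and at 420, 606 and 502 CPM in the net state. Its interval, from -0.02 to 0.55, lay just inside the limit, and with the replicate block the gene was placed past control, with a net change of 0.25 (0.05 to 0.45). Under the leave-one-out fits the DHT call of STK39 held in 8 of 12 and that of ELOVL5 in 7 of 12. It was lost in both genes without PXN siRNA vehicle replicate 1 or 3 or PXN siRNA DHT replicate 2 or 3, and in ELOVL5 also without NSP siRNA vehicle replicate 2, with adjusted p up to 0.096 for STK39 and 0.201 for ELOVL5.

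KLK3, KLK4 and ELOVL7 had net intervals too wide to place, although each was raised by DHT. The 250 bases before the RefSeq start of KLK3 and of its neighbour KLK2, described next, are shown because both genes were among those raised and their starts carry a like element. Capitals mark the match to GNACANNNTGTNC, an inverted repeat of the androgen response half-site with 3 bases between its arms, with at most 1 mismatch in its 8 fixed letters. The motif reads the same on both strands. Sequences are from RefSeq, build GRCh38.p14, plus strand, KLK3 at chr19:50854665-50854914 and KLK2 at chr19:50873189-50873438.
KLK3: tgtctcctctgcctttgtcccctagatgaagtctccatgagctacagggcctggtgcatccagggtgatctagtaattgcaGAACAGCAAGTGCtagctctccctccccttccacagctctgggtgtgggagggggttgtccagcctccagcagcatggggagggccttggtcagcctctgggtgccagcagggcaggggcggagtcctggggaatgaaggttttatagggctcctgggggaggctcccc
KLK2: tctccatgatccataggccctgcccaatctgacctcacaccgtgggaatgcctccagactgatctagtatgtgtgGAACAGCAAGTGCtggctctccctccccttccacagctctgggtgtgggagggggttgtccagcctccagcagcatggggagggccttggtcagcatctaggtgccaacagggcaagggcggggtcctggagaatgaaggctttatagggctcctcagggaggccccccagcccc
Both windows hold GAACAGCAAGTGC, which begins 169 bases before the start of KLK3 and 175 bases before that of KLK2. The windows were identical in 205 of 259 aligned columns (79.2%). The GENCODE 29 gene KLK2 (chr19:50861568-50880567, plus strand) begins upstream of this RefSeq start. Of the 34 genes raised by DHT 23 had a window in the RefSeq table, and 2 of their 40 windows, those of KLK3 and KLK2, held a match, against 2392 of all 35116 windows (6.81%). The others, among them RP3-483K16.4, ST6GALNAC1, TRGC1, CHRNA2, ZNF812, EDA, C19orf48, ADAM7 and TMPRSS2, had none in the table. A match is a description of the letters only.

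KLK3 (chr19:50854915-50860764, plus strand) had the lowest siRNA step of the 18 genes. It was at 762, 725 and 459 CPM in control cells, 142, 192 and 86.2 CPM after PXN siRNA, and 538, 673 and 540 CPM after PXN siRNA plus DHT. The control and net-state libraries overlapped, and both were clear of the PXN siRNA vehicle libraries. The siRNA step was -2.21 ± 0.23 (adjusted p = 3.4e-06) and the DHT step 2.06 ± 0.23 (adjusted p = 0.00191), leaving a net change of -0.15 with an interval from -0.63 to 0.33. With the replicate block the interval narrowed to -0.42 to 0.17, and KLK3 was placed back at control. That narrower interval rests on a block by which the net libraries were not paired. NSP siRNA cells given DHT averaged 2235 CPM, and against them the net-state log2 difference was -1.94 (adjusted p = 9.18e-06). The DHT call of KLK3 held in all 12 leave-one-out fits.

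KLK4 (chr19:50906352-50910738, minus strand), another kallikrein protease, reached 38.5, 70.3 and 61.6 CPM in the net state, against 73.1, 82.2 and 65.2 CPM in control cells and 19, 33.4 and 22.9 CPM after PXN siRNA alone. Its net change was -0.37 (-0.8 to 0.06), and with the block it was partly back at -0.41 (-0.66 to -0.15). ELOVL7, an elongase of very long saturated fatty acids, stood at 30.8, 28.8 and 23.1 CPM in control cells, 12.2, 13.7 and 8 CPM after PXN siRNA, and 28.4, 34.5 and 33.9 CPM in the net state. Its net change of 0.23 had an interval from -0.15 to 0.61, and with the block it was back at control. The DHT call of KLK4 held in 7 of 12 leave-one-out fits, and that of ELOVL7 in 12 of 12. KLK4 lost it without NSP siRNA vehicle replicate 2, PXN siRNA vehicle replicate 1 or 3, or PXN siRNA DHT replicate 2 or 3 (adjusted p up to 0.19).

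**Figure D2:**
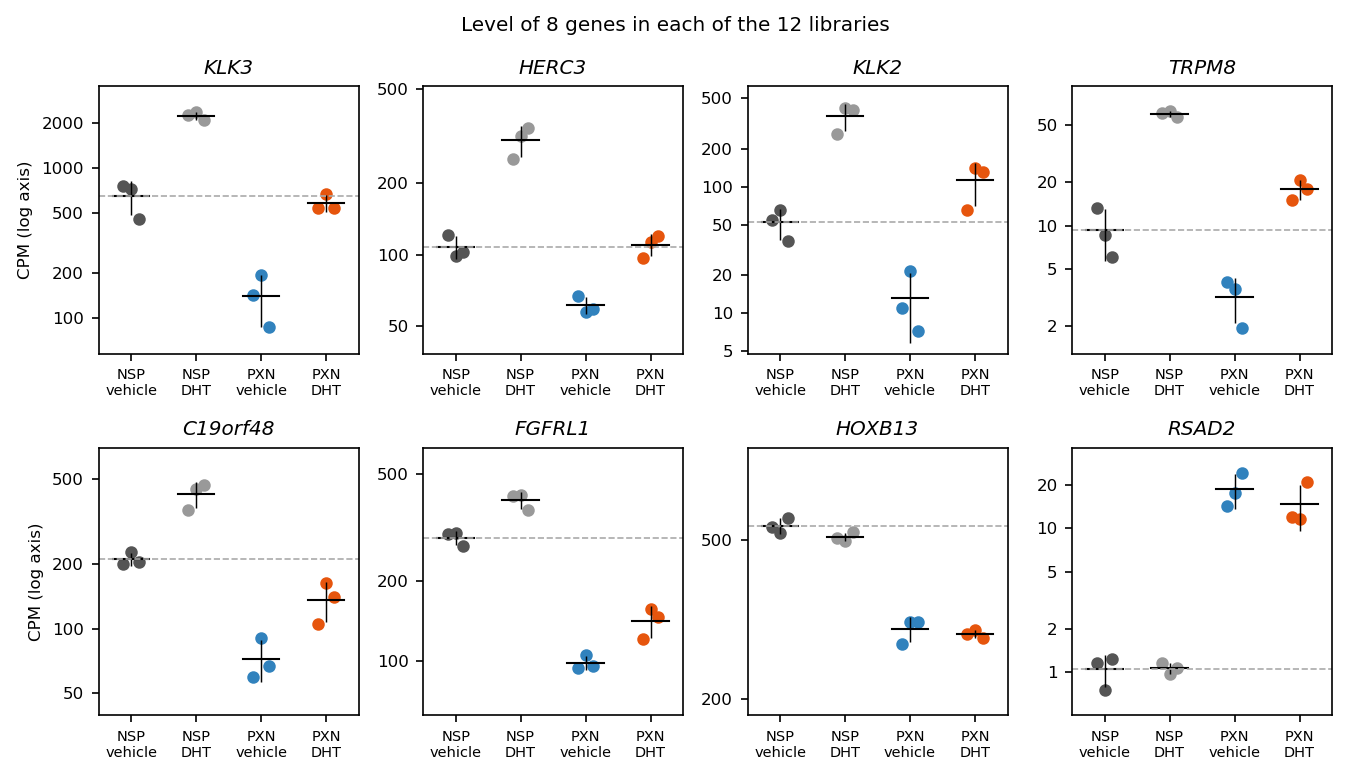
CPM of 8 genes on log axes (each panel has its own range) in the 4 groups, with 1 point per library, a bar at the mean of 3 libraries and a line for ± 1 SD. The dashed line is the control mean: HERC3 returns to it with PXN siRNA plus DHT, the KLK3 libraries overlap the control ones but with an interval too wide to place, KLK2 and TRPM8 pass it, C19orf48 and FGFRL1 stay below it, and HOXB13 and RSAD2 remain where PXN siRNA put them.

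TRPM8, GRIN3A, KLK2 and SLC45A3, 4 of the 5 genes past control, rose above the control level although PXN siRNA alone had lowered them. KLK2 ran from 54.3, 65.6 and 36.9 CPM in control cells through 10.9, 21.4 and 7.11 CPM after PXN siRNA to 64.8, 140.7 and 130 CPM. Its DHT step, 3.09 ± 0.35 (adjusted p = 0.00209), exceeded its siRNA step of -1.99 ± 0.36, for a net change of 1.1 ± 0.33 (adjusted p = 0.0137). One net-state library of KLK2, replicate 1 at 64.8 CPM, lay below the highest control library.

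TRPM8 (chr2:233917398-234019522, plus strand), a cold-sensing cation channel expressed in prostate epithelium, was at 13.3, 8.6 and 6.04 CPM in control cells. It was at 4.06, 3.63 and 1.94 CPM after PXN siRNA and at 15.1, 20.8 and 17.9 CPM in the net state, a net change of 0.95 ± 0.23 (adjusted p = 0.00354). GRIN3A, a glutamate receptor subunit, went from 11.3, 11.8 and 6.42 CPM in control cells to 4.25, 5.09 and 2.9 CPM and then to 13.3, 25.4 and 18.7 CPM, a net change of 0.95 ± 0.24 (adjusted p = 0.00426). Control and net-state libraries did not overlap in either gene. SLC45A3 (chr1:205657851-205680459, minus strand), the transporter gene that encodes prostein, had 112, 142 and 106 CPM in control cells and 125, 235 and 223 CPM in the net state, where 1 library lay within the control range. Its net change was 0.7 ± 0.22 (adjusted p = 0.0175). These 4 genes were nevertheless lower than in NSP siRNA cells given DHT, by log2 differences of -1.74 in TRPM8, -0.99 in GRIN3A, -1.69 in KLK2 and -1.49 in SLC45A3. The DHT call held in all 12 leave-one-out fits for TRPM8, GRIN3A and KLK2, and in 8 for SLC45A3. SLC45A3 lost it without PXN siRNA vehicle replicate 1 or 3 or PXN siRNA DHT replicate 2 or 3 (adjusted p up to 0.185).

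EDA, AADAT, C19orf48, FGFRL1, ARHGEF26, BMPR1B and ABHD2 came partly back. FGFRL1 (chr4:1009936-1026897, plus strand), a receptor that binds fibroblast growth factors but lacks a kinase domain, was the farthest from control. It had 297, 300 and 269 CPM in control cells, 94.7, 105 and 96.2 CPM after PXN siRNA, and 121, 157 and 146 CPM after DHT was added. The 3 groups did not overlap, and the net change was -1.03 ± 0.09 (adjusted p = 8.55e-07). ABHD2, a serine hydrolase, was at 1393, 1240 and 1111 CPM in control cells, 458.2, 534.2 and 426.1 CPM after PXN siRNA, and 616.1, 749.4 and 720.2 CPM in the net state, a net change of -0.84 ± 0.1. C19orf48 (chr19:50797704-50804929, minus strand) went from 201, 228 and 206 CPM to 59.4, 90.3 and 67.3 CPM and to 106, 163 and 140 CPM, a net change of -0.63 ± 0.16 (adjusted p = 0.00424).

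ARHGEF26, a guanine nucleotide exchange factor for small GTPases, and BMPR1B, a receptor for bone morphogenetic proteins, ended at net changes of -0.66 ± 0.15 and -0.44 ± 0.08. AADAT, an aminotransferase of lysine and tryptophan breakdown, had 38.4, 43 and 42.1 CPM in control cells, 18.6, 22.7 and 18.8 CPM after PXN siRNA, and 31.1, 36.7 and 32 CPM in the net state. EDA, the ligand ectodysplasin, had 34.9, 34.4 and 31.9 CPM, then 18.8, 18.7 and 16.7 CPM, then 24.5, 29.7 and 27.4 CPM. Both stood at a net change of -0.31 and were the nearest to control of the 7, with no overlap between control and net-state libraries. Their DHT calls held in 4 (BMPR1B) to 10 (EDA) of 12 leave-one-out fits, with adjusted p up to 0.229. Partly back genes numbered 0 without PXN siRNA vehicle replicate 3 or PXN siRNA DHT replicate 2, 1 without PXN siRNA vehicle replicate 1, 2 without PXN siRNA DHT replicate 3, 3 without NSP siRNA vehicle replicate 2 and 4 without NSP siRNA DHT replicate 2. They numbered 12 without NSP siRNA DHT replicate 1 and 45 without PXN siRNA vehicle replicate 2.

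**Figure D3:**
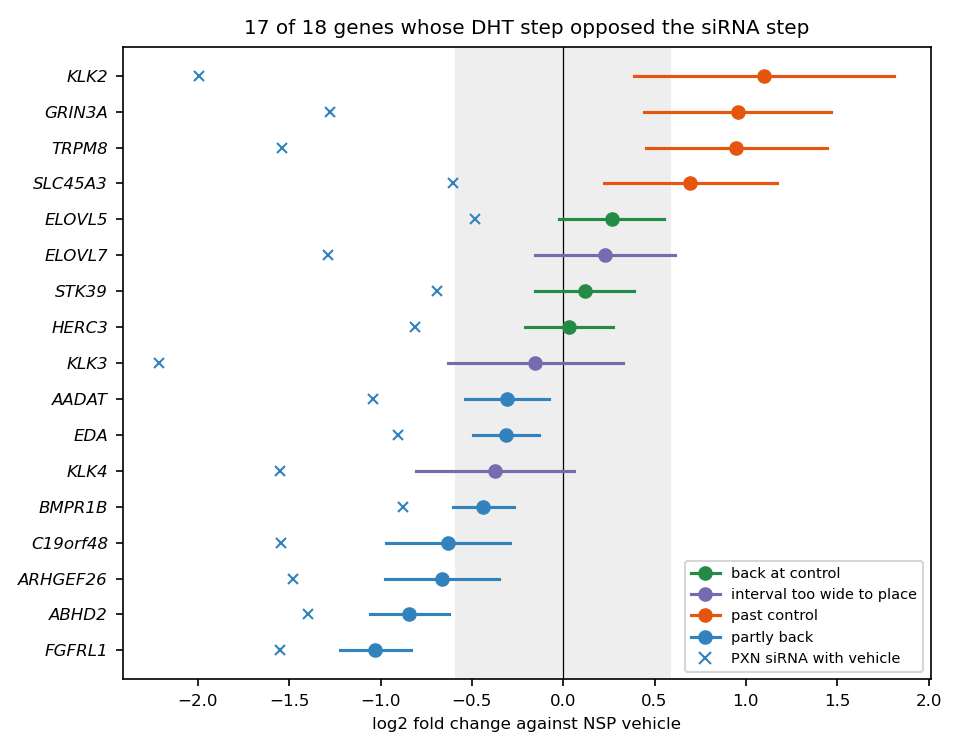
Net log2 fold change (PXN siRNA plus DHT against NSP siRNA plus vehicle) of 17 of the 18 genes with its 95% interval from the edgeR fit of all 12 libraries; crosses give the siRNA step alone, and the grey band is 1.5-fold either way. All crosses lie left of 0; the intervals of the 4 genes past control lie right of 0, and those of the 7 genes partly back lie left of it.

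In edgeR, genes that PXN siRNA had raised and DHT then lowered were called with the replicate block, and 0 without it. Of the 68 genes back at control in the blocked fit 22 had been raised by PXN siRNA. SLC12A2, the sodium-potassium-chloride cotransporter, had 212, 190 and 193 CPM in control cells, 254, 249 and 232 CPM after PXN siRNA, and 209, 171 and 181 CPM in the net state. Its blocked DHT step was -0.39 (adjusted p = 0.00357), against an adjusted p of 0.224 without the block. AMIGO2, an adhesion molecule with leucine-rich repeats, had 14.4, 12.2 and 13.8 CPM, then 19, 16.3 and 18.4 CPM, then 14.4, 10.3 and 12.7 CPM (blocked DHT step -0.53, adjusted p = 0.00305). LRRN1, another leucine-rich repeat membrane protein, had 154, 171 and 176 CPM, then 195, 234 and 228 CPM, then 151, 161 and 170 CPM (blocked DHT step -0.45, adjusted p = 0.0153). In each of these 3 genes the net-state libraries overlapped the control libraries and lay below every PXN siRNA vehicle library.

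Lowered genes placed back at control with the block included HES6, KCNN2 and GPR158. HES6, a helix-loop-helix factor, had 21.2, 25.1 and 25 CPM in control cells, 8.96, 12.5 and 12.4 CPM after PXN siRNA, and 17.3, 35.3 and 26.5 CPM in the net state. Its DHT step of 1.22 ± 0.23 missed the threshold without the block (adjusted p = 0.0575) and passed it with the block (adjusted p = 2.66e-05). KCNN2, a calcium-activated potassium channel, had 128, 112 and 95 CPM, then 78.4, 77 and 62.4 CPM, then 104, 124 and 101 CPM (adjusted p = 0.0504 without and 0.000504 with the block). FKBP5, the androgen- and glucocorticoid-induced cochaperone of HSP90, had no DHT call without the block (adjusted p = 0.262), and with the block (adjusted p = 0.00983) its net interval was too wide to place it. Its libraries spread from 29.5 to 83.9 CPM in the net state, against 59.8 to 68.2 CPM in control cells and 17.8 to 27.6 CPM after PXN siRNA. The blocked class of 68 genes fell to 9 without PXN siRNA DHT replicate 2, to 30 without PXN siRNA vehicle replicate 2 and to 45 without PXN siRNA DHT replicate 1.

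A further 1325 genes called in the siRNA step were not called in the net state and had no DHT call. For 763 of them the net interval lay within 1.5-fold of control. The siRNA step had raised 737 of them and lowered 588, with a median size of 0.40 on the log2 scale in either direction, against 0.57 for genes that kept their difference. No return by DHT can be read from them. The count was 736 without PXN siRNA vehicle replicate 1 and 2140 without PXN siRNA DHT replicate 1.

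Without the block, DHT also raised 15 genes that PXN siRNA had not been called to move, and these stood above control in the net state. CHRNA2 (chr8:27459761-27479883, minus strand), a nicotinic acetylcholine receptor subunit, had 0.379, 0.757 and 0.748 CPM in control cells and 4.21, 16 and 17.3 CPM in the net state. In NSP siRNA cells DHT took it to 14.6, 41.1 and 44.4 CPM. Its net change of 4.3 ± 0.74 (adjusted p = 6.57e-05) was the only one among the 8 rises counted above that came with a DHT call. HPGD, the prostaglandin-degrading dehydrogenase, rose from 0.845, 1 and 0.777 CPM to 2.1, 5.26 and 6.11 CPM (net 2.35 ± 0.42, adjusted p = 0.000231). ST6GALNAC1, a sialyltransferase, rose from 2.71, 2.95 and 2.13 CPM to 7.68, 15.1 and 13.5 CPM (net 2.22 ± 0.29, adjusted p = 1.95e-05). TENM1, a teneurin membrane protein, rose from 2.65, 3.71 and 2.79 CPM to 6.32, 12.2 and 9.81 CPM (net 1.63 ± 0.27, adjusted p = 0.000169). The control and net-state libraries did not overlap in HPGD, ST6GALNAC1 and TENM1, nor in CHRNA2, which was chosen for that, and replicate 1 was the lowest of the net-state libraries in each.

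TMPRSS2 (chr21:41464551-41531116, minus strand), the membrane serine protease whose promoter is fused to ETS factors in many prostate tumours, belonged to the same group. It had 145, 151 and 115 CPM in control cells, 111, 117 and 106 CPM after PXN siRNA, and 184, 286 and 306 CPM in the net state (net 0.92 ± 0.18, adjusted p = 0.000705). NSP siRNA cells given DHT had 449, 631 and 710 CPM, a difference of -1.21 (adjusted p = 6.37e-05) for PXN siRNA under DHT. The group also held PLA2G5, ADAM7, MALT1, ZNF812, TRGC1, TNS3, RP3-483K16.4, ALPK2 and ADH1C. Of the 15, 9 were lower with PXN siRNA than with NSP siRNA when both received DHT, among them CHRNA2 and HPGD, and none was higher. Of all genes tested 26.7% were lower and 25% higher in that comparison. With the replicate block PXN siRNA was called to have lowered ADAM7 (siRNA step -1.06, adjusted p = 0.0251) and TRGC1 (-0.81, adjusted p = 0.0465), which were then past control. TMPRSS2 and these 9 genes were named after their values were seen. PLA2G5, ST6GALNAC1 and ADAM7 kept their DHT call in 12 of 12 leave-one-out fits and the others named in 5 (ADH1C) to 10 (CHRNA2). The group held 4 to 7 genes without PXN siRNA vehicle replicate 1 or 3 or PXN siRNA DHT replicate 2 or 3, and 33 or 34 without PXN siRNA DHT replicate 1 or NSP siRNA DHT replicate 1.

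TMTC2 (chr12:82686880-83134870, plus strand), a transmembrane protein with tetratricopeptide repeats, was the only gene that both steps raised. It had 18, 17.7 and 16.8 CPM in control cells, 24.5, 22.5 and 20.5 CPM after PXN siRNA, and 29.4, 32.5 and 31.2 CPM in the net state. The groups did not overlap, and the net change was 0.83 ± 0.08 (adjusted p = 2.13e-06). The DHT step, 0.47 ± 0.08, held in 9 of 12 leave-one-out fits, and not without PXN siRNA vehicle replicate 3 or PXN siRNA DHT replicate 2 or 3. With the block 44 genes moved farther from control in the DHT step, 21 upward and 23 downward. IQGAP2, a scaffold of the cytoskeleton, was one of them, with 7.96, 7.68 and 7.13 CPM in control cells, 17.6, 18.6 and 16.8 CPM after PXN siRNA, and 22, 33.7 and 33.3 CPM in the net state. MYRIP, which links Rab27 to myosins, moved the other way, from 48.4, 44 and 47.3 CPM to 26.8, 31.4 and 28 CPM and to 22.1, 21.9 and 20.1 CPM.

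More of the listed androgen-induced genes stood above control in the net state than below it. The list was chosen with earlier results of these data known, so its counts describe its members and are no independent test. Of 50 listed and tested genes 20 were higher than control (40%, against 23.6% of all genes tested), 5 were lower (10%, against 26.2%) and 25 were not called. The median net log2 fold change was 0.22, against 0.02 over all genes tested. The same list had a median of -0.38 in the siRNA step (8 higher, 24 lower), which called 23.9% of all genes tested higher and 26.3% lower. Its median in the DHT step was 0.45 (14 higher, 0 lower, 27 higher with the block). That step raised 0.184% of all genes tested, and 1.35% with the block. In NSP siRNA cells DHT raised 40 of the 50, with a median of 1.03, against 2.72% of all genes tested. Under DHT 36 were lower with PXN siRNA than with NSP siRNA and 2 higher, with a median of -1.04. Of all genes tested 26.7% were lower and 25% higher in that comparison. ORM1 and STEAP4 were called higher from control means of 0.018 and 0.112 CPM, near the limit of detection, so their net changes of 4.13 ± 1.75 and 3.12 ± 1.13 are imprecise, and neither had a DHT call without the block. AZGP1, a secreted zinc-binding glycoprotein, had the largest net fall at -0.94 ± 0.1 (22.9, 19.9 and 19.3 CPM to 9.73, 11.5 and 11.1 CPM), and its DHT step was 0.08 (adjusted p = 0.921). MAF and ALDH1A3 were higher than control in the siRNA step already. MAF, a transcription factor, had 18.5, 12.4 and 12.7 CPM in control cells, 70, 38.7 and 54 CPM after PXN siRNA, and 68.4, 42.5 and 54.2 CPM in the net state.

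Of 25 listed androgen-repressed genes 3 were higher than control in the net state (12%, against 23.6% of all genes tested) and 10 were lower (40%, against 26.2%), with a median of -0.08. The siRNA step had already called 7 of them higher and 8 lower, against 23.9% and 26.3% of all genes tested. The DHT step had a median of -0.16 and called 0 without the block. With the block it called 3 higher and 4 lower, against 1.35% and 0.525% of all genes tested. SI, the sucrase-isomaltase gene, had 23.4, 19.6 and 22.4 CPM in control cells and averaged 11.85 CPM after PXN siRNA. It had 8.5, 7.18 and 6.33 CPM in the net state (net -1.57 ± 0.2, adjusted p = 2.12e-05), with no overlap with control. HES6, described above, KCND3 and PEG3 are on this list but were raised by DHT here in the fit with the block. This list too was chosen with earlier results of these data known.

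Most luminal markers that differed were below control. HOXB13, a prostate homeobox factor, went from 539, 521 and 568 CPM to 274, 312 and 312 CPM and to 291, 297 and 284 CPM (net -0.9 ± 0.06, adjusted p = 2.21e-07). Of 14 luminal markers 2 were higher in the net state (14.3%, against 23.6% of all genes tested), SLC45A3 among them. Another 7 were lower (50%, against 26.2%), and the median of the list was -0.20.

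Altogether 7932 genes were called in the siRNA step, had no DHT call and differed from control in the same direction in the net state. Of these 3685 were higher (20% of genes tested) and 4247 were lower (23%). For 2544 of them the whole net interval lay within 1.5-fold of control, so the difference was small. Absence of a DHT call does not show that DHT had no effect on them. Among the 1440 genes at least 2-fold higher after PXN siRNA, 1166 were still at least 2-fold higher in the net state, and the DHT step opposed 0. Among the 722 at least 2-fold lower, 509 were still at least 2-fold lower, 639 were called lower, 4 were called higher, and the DHT step opposed 12. The raised genes had a median siRNA step of 1.48 and a median net change of 1.42, and the lowered genes medians of -1.40 and -1.22. With the block the DHT step opposed 13 of 1509 raised and 62 of 739 lowered genes. These genes were chosen on libraries that the net comparison and the DHT step share.

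Genes of cell division were lower in the net state without exception among those listed. All 38 tested genes of DNA replication and G1/S and all 32 of mitosis and G2/M were lower, against 26.2% of all genes tested. The median net changes of the 2 lists were -1.11 and -1.89, against 0.02 over all genes tested. Their siRNA steps had medians of -1.32 and -2.09 and their DHT steps medians of 0.22 and 0.22. None of the 70 passed the test for DHT without the block. With the block, where DHT raised 1.35% of all genes tested, 3 replication genes did, and all 3 were partly back. TK1, thymidine kinase, had 103, 104 and 107 CPM in control cells, 23.5, 33.7 and 26.7 CPM after PXN siRNA, and 28.1, 33.4 and 25.9 CPM in the net state (net -1.85 ± 0.11, adjusted p = 9.36e-08). CEP55, which is needed for the last cut of cytokinesis, had 29.4, 27.8 and 31.6 CPM in control cells, then 4.41, 6.97 and 4.11 CPM, then 6.32, 7.04 and 5.75 CPM (net -2.22 ± 0.15). BUB1B, a spindle checkpoint kinase, ended at a net change of -1.96 ± 0.13. No control library of TK1 and BUB1B overlapped a net-state library.

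Apart from PXN, the largest net falls among genes at 5 CPM or more included further genes of cell division. NEK2, SGOL1, SHCBP1, CEP55 and DIAPH3 act in mitosis or cytokinesis and had net changes between -2.24 (NEK2) and -2.21 (DIAPH3). NMU, which encodes the peptide neuromedin U, fell from 6.88, 6.84 and 7.65 CPM to 1.53, 1.88 and 1.08 CPM (net -2.25 ± 0.27). APP, the amyloid precursor protein, was the most abundant of them, with 746, 638 and 570 CPM in control cells, 158, 170 and 131 CPM after PXN siRNA, and 170, 137 and 119 CPM in the net state (net -2.2 ± 0.14, adjusted p = 1.23e-07). The genes were chosen among those whose control and net-state libraries did not overlap, as held for 57.3% of genes tested.

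Interferon response genes were higher in the net state, with the same median as after PXN siRNA alone. Of 36 tested 31 were higher (86.1%, against 23.6% of all genes tested) and 2, USP18 and OAS3, were lower (5.56%, against 26.2%). The median net change was 1.31. The median siRNA step was also 1.31, the median DHT step was -0.10, and none passed the test for DHT with or without the block. RSAD2, the antiviral enzyme viperin (chr2:6865806-6898239, plus strand), had 1.17, 0.757 and 1.24 CPM in control cells, 14.3, 17.7 and 24.3 CPM after PXN siRNA, and 12.1, 11.6 and 20.9 CPM in the net state (net 3.82 ± 0.3, adjusted p = 2.59e-07). TRIM22, an antiviral tripartite motif protein, had 0.816, 0.757 and 0.374 CPM in control cells, then 16.2, 7.29 and 9.46 CPM, then 12.7, 6.21 and 9.81 CPM (net 3.87 ± 0.4). IFI6 went from 12.8, 11.5 and 10.8 CPM to 55.1, 64.4 and 72.2 CPM and to 51, 59.4 and 69.9 CPM (net 2.36 ± 0.13). Control libraries of IFI6 lay below every library with PXN siRNA.

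The other large net rises were of genes with low control levels. Among genes at 5 CPM or more in their highest group whose libraries did not overlap, AC109309.4 and MRGPRE, a G protein-coupled receptor, had the largest, at 5.94 ± 0.73 and 5 ± 0.51. AC109309.4 went from 0.175, 0.108 and 0.144 CPM to 12.1, 5.07 and 9.39 CPM, and MRGPRE from 0.67, 0.595 and 0.518 CPM to 28.5, 11.8 and 16.9 CPM. KRT75, a keratin of hair follicles, rose from 0.554, 0.46 and 0.345 CPM to 8.12, 6.46 and 9.56 CPM (net 4.14 ± 0.31). The antisense transcripts MCPH1-AS1 and DIO3OS rose by 3.74 ± 0.2 and 3.61 ± 0.27. Whether reads were counted by strand is not stated, so those of an antisense transcript and of the gene opposite may not have been told apart. In all of them the DHT step was between -0.10 (KRT75) and 0.17 (MRGPRE), and none passed its test.

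Most genes of sterol and fatty acid synthesis were lower in the net state. Of 34 tested genes 26 were lower (76.5%, against 26.2% of all genes tested) and 2, SC5D and TM7SF2, were higher (5.88%, against 23.6%). The median net change was -0.61. In the siRNA step 32 had been lower and 2 higher (26.3% and 23.9% of all genes tested), with a median of -0.72. The median DHT step was 0.14. ELOVL5 alone passed its test, and 3 genes did with the block, where DHT raised 1.35% of all genes tested. SCD, the stearoyl-CoA desaturase, had 3149, 3052 and 2930 CPM in control cells, 936.6, 1363 and 1092 CPM after PXN siRNA, and 1026, 1222 and 1140 CPM in the net state (net -1.43 ± 0.11, adjusted p = 4.44e-07). ELOVL6, which elongates palmitate, had 180, 168 and 184 CPM in control cells and 41.3, 48.6 and 39.8 CPM in the net state (net -2.04 ± 0.13). For the elongase ELOVL5, described above, the net change of 0.26 was not called (adjusted p = 0.116).

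**Figure D4:**
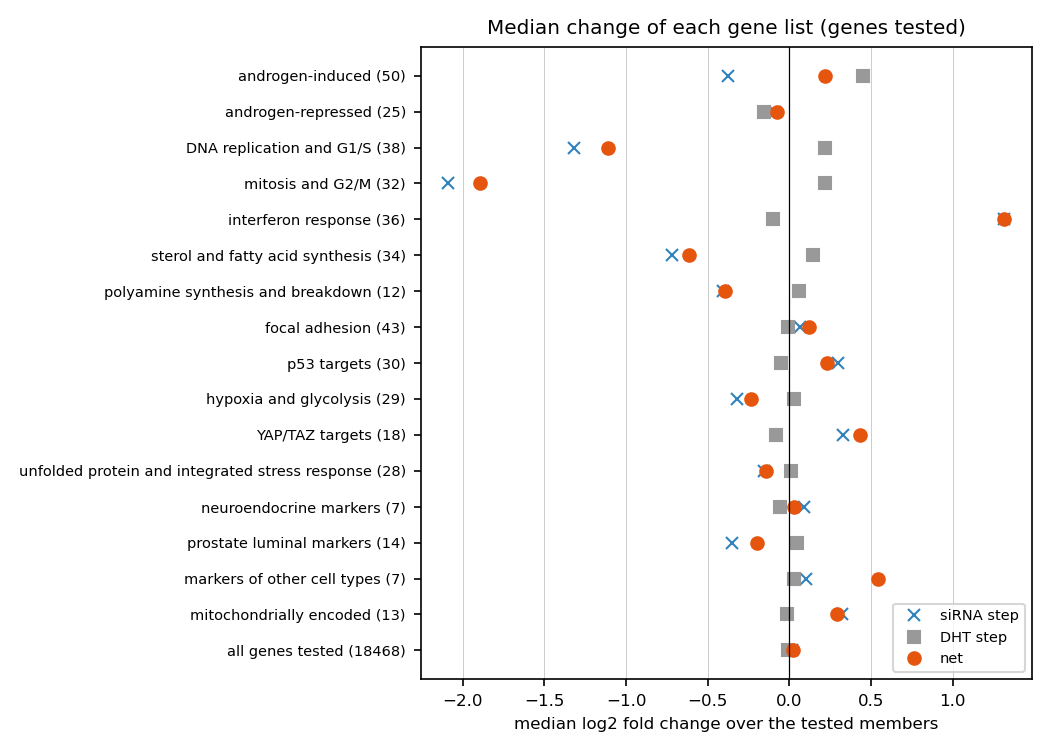
Median log2 fold change of each gene list (number of tested members in parentheses) in the siRNA step, the DHT step and the net comparison. The net median lies close to that of the siRNA step in most lists, and on the other side of 0 in the androgen-induced genes (-0.38 against 0.22).

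The counts of the smaller lists are to be read against all genes tested, of which 23.6% were higher, 26.2% lower and 0.184% called for DHT. Of 12 polyamine genes 7 were lower and 2 higher (median -0.39): AMD1, the decarboxylase that feeds spermidine synthesis, had a net change of -1.23 ± 0.08, SRM, spermidine synthase, -1.04 ± 0.11, and SAT1, the acetyltransferase of polyamine breakdown, 1.24. SRM was partly back with the block (DHT step 0.29, adjusted p = 0.0446). Of 29 hypoxia and glycolysis genes 16 were lower and 6 higher (median -0.23), with PFKFB3 at -1.43 ± 0.12, ENO1 at -0.83 ± 0.08 and PKM at -0.83 ± 0.09. Of 28 genes of the unfolded protein and integrated stress responses 12 were lower and 9 higher (median -0.14), with the stress factor DDIT3 at 1.37 ± 0.12 and the serine synthesis enzyme PHGDH at -1 ± 0.1. Of 30 p53 targets 13 were higher and 2 lower (median 0.23), with GADD45A at 1.09 ± 0.16, BBC3 at 1.03 ± 0.16 and CCNG1 at -1.13 ± 0.07.

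Among 43 focal adhesion genes, the group to which paxillin belongs, 16 were higher (37.2%, against 23.6% of all genes) and 10 lower (23.3%, against 26.2%), with a median of 0.12. The 3 members with the smallest net p, LIMS1, CRKL and ITGAV, were lower. LIMS1, which encodes the integrin-linked adaptor PINCH, went from 51.7, 45.1 and 54.9 CPM in control cells to 26.3, 23 and 23.5 CPM in the net state (net -1.06 ± 0.08), and ITGAV, the integrin alpha V chain, from 162, 139 and 138 CPM to 88.8, 78.8 and 78.5 CPM (net -0.83 ± 0.08). Neither overlapped with control. CRKL, an adaptor that binds paxillin, had a net change of -0.78 ± 0.07. Of 18 YAP/TAZ targets 8 were higher and 3 lower (median 0.43), with CYR61 at 0.82 ± 0.11 and LATS2 at 0.6 ± 0.07. Of 7 neuroendocrine markers 3 were higher and 1 lower (median 0.03), too few to set apart from the shares over all genes, ENO2 rising by 0.82 ± 0.14 and SYT4 lower at -0.68 ± 0.16. Of 7 tested markers of other cell types 3 were higher and 2 lower (median 0.54), and of 13 mitochondrially encoded genes 1, MT-CYB, was higher (median 0.29).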

How the data were processed

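Extraction used the RNeasy Plus Mini kit and library preparation the TruSeq Stranded mRNA kit, per the labels' protocols. The values deposited by the authors are whole-number counts per gene symbol. Trimmomatic 0.32, STAR 2.4.2a, Subread 1.5.0p3 with featureCounts, and the GRCh38 build are named, per the submitters' processing notes. Annotation, strand setting and handling of multiply mapped reads are not given, so overlapping and closely related genes, such as the kallikreins, are less certain.

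The table held 36137 symbols. In R 4.3.3, 18468 were kept by edgeR's filterByExpr (17669 left out), scaled by TMM and fitted with edgeR 4.0.16 by quasi-likelihood, with 4 group means over all 12 libraries (residual degrees of freedom: 8). CPM are relative to TMM-scaled totals. SE and 95% intervals come from that fit, and a call is a Benjamini-Hochberg adjusted p under 0.05. No replicate pair agreed within sampling noise (chi-square per gene 6.705 to 29.77). The fitting, and the placing of genes without the block, were tried on simulated data. Those data had the same spread for every gene and no replicate effect. Their changes lay in well-counted genes and were larger than the DHT steps of HERC3, STK39 and ELOVL5. The trial therefore cannot show how reliably smaller changes, or genes in the blocked fit, were placed. DESeq2 1.42.0, limma 3.58.1 and other alternatives are given in the closing section.

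Deviations of same-numbered libraries from their group means correlated at 0.1211 to 0.2101 in the siRNA step and 0.1004 to 0.3066 in the DHT step, all over the limit of 0.1 for pairing, the last barely. In the net comparison they ran from -0.0256 to 0.2609, so the net comparison was not taken as paired. Between PXN siRNA and NSP siRNA under DHT they ran from 0.0769 to 0.284, which also missed the limit. The pairing comes from the shared numbers in the labels and this check.

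Named genes were PXN, the 8 largest called rises and falls at 5 CPM or more with no overlap, the genes of each class with the smallest DHT p (6 for back, 4 for others), the 4 largest of the kept and added classes, and 3 members of each list with the smallest net p, plus up to 3 that came back, partly back or past. Other genes were named after their values were seen. The comparison, the 16 lists (433 symbols, 403 tested) and the tests were chosen with earlier results of these data known. Promoters were searched and aligned with Python 3.11.15 and Biopython 1.88. Results for some genes are not reported here.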

Additional observations from a re-analysis of the deposited data

Results flagged for a closer look

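The response to DHT differed between PXN siRNA and NSP siRNA cells in 7 named genes by the interaction test of the fit with the replicate block. None of the 7 passed that test without the block, where adjusted p ran from 0.115 to 1. The values are the log2 response with PXN siRNA minus that with NSP siRNA, from edgeR with the block. FAM174B had -0.81 (adjusted p = 0.000356, responses of 0.36 and 1.17) and GRAMD1C 0.76 (adjusted p = 0.00914, responses of -0.37 and -1.13). ALDH1A3 had -0.85 (adjusted p = 0.0167), KCNMA1 -0.81 (adjusted p = 0.0185), IQGAP2 -1.04 (adjusted p = 0.0218), AMIGO2 0.74 (adjusted p = 0.0218) and SLC45A3 -0.89 (adjusted p = 0.0362). In each the response with PXN siRNA was the smaller and in the same direction. The interaction test draws on all 4 groups, and the pairing behind its block was not met throughout. Under DHT, same-numbered PXN siRNA and NSP siRNA libraries correlated at 0.0769 to 0.284, the lowest below the limit of 0.1. The pairing of the NSP siRNA DHT libraries with the NSP siRNA vehicle libraries was not checked.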

How the results depend on the processing

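Net calls kept within 1.5 times of their count under every setting run except a test against a fold change of 1.5, which called 1757 genes (1015 higher, 742 lower). The siRNA step and PXN siRNA under DHT also kept within it. The DHT step called 188 genes with no low-count filter, 143 with DESeq2, 346 with the replicate block and 11 at an adjusted p of 0.01. Fitted on the 6 PXN siRNA libraries only, it called 18, or 778 with the replicate block. The interaction called 1 gene with DESeq2 size factors, 35 with no filter, 37 with DESeq2 and 58 with the replicate block. For no filter, DESeq2, the replicate block and an adjusted p of 0.01, in that order, genes back were 39, 25, 68 and 1, partly back 41, 25, 121 and 0, farther 16, 9, 44 and 0, and added 61, 60, 84 and 4. Past genes were 10 with no filter, 12 with the replicate block and 3 at an adjusted p of 0.01. Opposed genes that could not be placed were 13 with no filter, 14 with DESeq2, 14 with the replicate block, and 5 with DESeq2 size factors or without mitochondrially encoded genes. The narrower limit tried for the net interval left 1 gene back and 5 unplaced, and a limit of 2-fold 6 back and 0 unplaced. Upper-quartile scaling gave 3 farther genes and limma-voom 7 added ones.

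With 1 library left out, the DHT step called 10 to 80 genes, the interaction 0 to 45, and the classes held 1 to 12 (back), 0 to 45 (partly back), 3 to 9 (past), 0 to 10 (not placed), 0 to 6 (farther), 736 to 2140 (near control without a DHT call) and 4 to 34 (added). With the replicate block these fits gave 60 to 415 DHT calls, 9 to 79 genes back and 16 to 173 partly back. For the net comparison, whose libraries were not paired by their numbers, the block called 10670 genes in place of 9192. No named gene's called net change or DHT step reversed under any setting run. The fits that combine the block with a left-out library, those on the 6 PXN siRNA libraries and the one without mitochondrially encoded genes were chosen after seeing the data. With 3 libraries a group, the width of an interval limits which genes can be placed, and the cause of each change was not tested.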
